A study of Mus musculus with 6 samples.

Results

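The TNF receptor superfamily was described here by 10 of its genes (Tnfrsf1a, Tnfrsf1b, Tnfrsf4, Tnfrsf9, Tnfrsf10b, Tnfrsf13c, Tnfrsf18, Tnfrsf25, Cd27 and Fas), taken by symbol from a table of 23841 genes. The tested population was type 1 innate lymphoid cells (ILC1), tissue lymphocytes related to natural killer cells, in 3 pools. It was set against conventional natural killer (cNK) cells, cytotoxic innate lymphocytes that circulate in blood, likewise in 3 pools. Both came from the kidneys of naive wild-type C57BL/6 mice and were sorted as NK1.1+NKp46+CD3- cells, ILC1 as CD49a+ with low to intermediate CD49b and cNK as CD49b high. The sources used here give neither the age of the mice nor their number per pool, so p-values measure the spread between pools, which may be technical.

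Receptors of this superfamily are membrane proteins with cysteine-rich repeats that bind trimeric ligands of the TNF superfamily. Some carry an intracellular death domain that can recruit caspase-8 through adaptor proteins, and the others bind TRAF adaptors that lead to NF-kB and MAP kinase signalling. On T cells and natural killer cells, several of the TRAF-binding receptors act as costimulatory receptors that appear or increase on activation.

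The sort labels were set beside marker genes. All 8 ILC1 markers, Tnfsf10 among them, passed the test as higher in ILC1. All 7 cNK markers passed as higher in cNK, with Itga1 and Itga2 of the sort gate included in the lists. The lists were chosen with earlier results of these data known, so this is no independent check. The libraries held 22633440 to 28327265 counts, so that 1 count was worth 0.0342 to 0.0454 CPM (counts adjusted for library size and composition by the TMM method of edgeR). In these bulk libraries, fewer cells expressing a gene and less RNA per cell cannot be told apart.

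Of the 10 receptor genes, 5 were higher in ILC1 (Tnfrsf25, Tnfrsf13c, Tnfrsf10b, Tnfrsf18 and Tnfrsf1a), 0 were higher in cNK, 4 did not pass and 1, Tnfrsf4, did not reach the count minimum of the test. The test was edgeR's quasi-likelihood test at an adjusted p of 0.05, over 16144 genes, of which it called 5.76%, with 4.07% higher in ILC1 and 1.69% higher in cNK. The 9 tested receptors each reached the count minimum in all 6 libraries. Their median log2 fold change (ILC1 over cNK) was 0.89, against 0.01 over all genes tested. The 10 genes were chosen with earlier results of these data known, so the values over all genes are a description and no test of the family. Of 11 further family receptors tested, edgeR called 0. For cNK, 1 receptor, Tnfrsf9, was higher at an unadjusted edgeR p under 0.05 and was called by DESeq2, while limma-voom called 0. The count of 5 was 3 without ILC1 pool 2, without cNK pool 2 or without cNK pool 3, and Tnfrsf25, Tnfrsf13c and Tnfrsf10b were called in each of the 15 alternative settings.

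**Figure D1:**
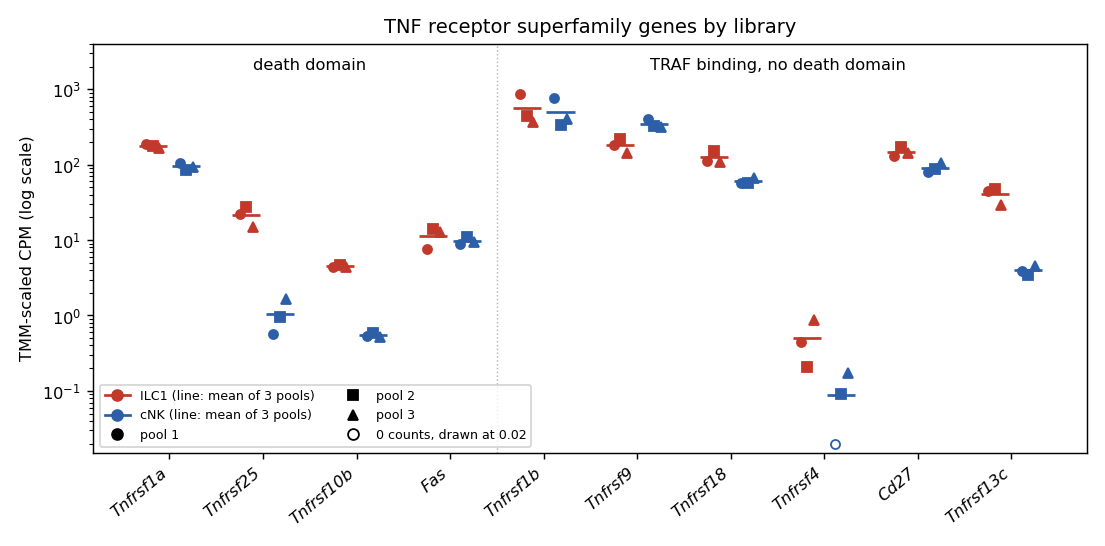
TMM-scaled CPM (log axis) of the 10 receptor genes in each library, ILC1 in red to the left of cNK in blue, with a line at the mean of 3 pools and death domain receptors on the left of the dotted line. Tnfrsf25, Tnfrsf13c and Tnfrsf10b show the widest gaps between the populations, while the pools of Tnfrsf1b and Fas overlap.

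**Figure D2:**
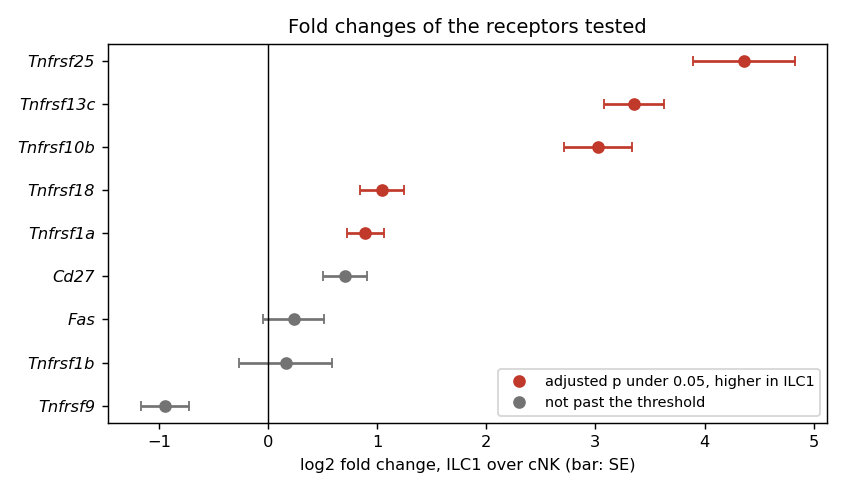
Log2 fold change of ILC1 over cNK with its standard error for the 9 receptors tested, in red where edgeR's adjusted p was under 0.05. Values run from -0.95 for Tnfrsf9 to 4.36 for Tnfrsf25.

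Markers of some other cells differed between the populations, and those of others did not. Kidney epithelium markers made up 0.0304 to 0.296% of counts in ILC1 and 0.0991 to 0.313% in cNK, which overlap. Of the 12 tested, 0 were called (0 higher in ILC1 and 4 in cNK at an unadjusted edgeR p under 0.05). Their share was highest in ILC1 pool 3 (0.296%) and cNK pool 2 (0.313%). The part of kidney epithelium in the receptor values was not tested. Of 18 myeloid markers, 7 were called higher in ILC1 and 0 in cNK, and together they made up 0.372 to 0.897% of counts in ILC1 and 0.0721 to 0.0979% in cNK, with none of the 18 at 0 in every library. Tnfrsf1a, Tnfrsf1b and Fas are also expressed by myeloid cells. ILC1 pool 3 held the largest myeloid share. It was the lowest ILC1 pool for Tnfrsf1a, Tnfrsf1b, Tnfrsf9, Tnfrsf13c, Tnfrsf18 and Tnfrsf25, the highest for Tnfrsf4, and between the others for Tnfrsf10b, Cd27 and Fas. Without it the count of receptors called higher in ILC1 was still 5. However, ILC1 pools 1 and 2 (0.487 and 0.372%) also held a larger myeloid share than any cNK pool. The part of myeloid cells in the receptor values was not tested. Of 11 T-cell markers, 1 (Cd3g) was called higher in ILC1 and 0 in cNK (4 and 0 at an unadjusted edgeR p under 0.05). The list made up 0.0677 to 0.1% of counts in ILC1 and 0.0365 to 0.0414% in cNK. Most of these counts came from Trbc1 (311 ± 74.3 CPM in ILC1, 212 ± 14.5 CPM in cNK) and Trbc2 (355 ± 111 and 165 ± 18.3 CPM). Only Cd3d (6.39 ± 2.73 and 10.5 ± 3.31 CPM) and Trac (11.1 ± 3.05 and 15.5 ± 1.86 CPM) had a lower mean in ILC1, without a call (SD, n = 3 each). The part of T cells in the values of Tnfrsf25, Tnfrsf18, Tnfrsf9 and Cd27, which T cells also express, was not tested. Mitochondrial transcripts made up 1.38 to 6.53% of counts in ILC1 and 3.15 to 12.7% in cNK, and with that share as covariate 3 receptors were called higher in ILC1 (Tnfrsf25, Tnfrsf13c and Tnfrsf10b) and Tnfrsf9 was called higher in cNK (edgeR adjusted p = 0.0236).

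The receptor genes lie partly in clusters (GRCm38, GENCODE M21). Tnfrsf1b (chr4:145213463-145246870), Tnfrsf9 (chr4:150914562-150946102), Tnfrsf25 (chr4:152115934-152120119), Tnfrsf4 (chr4:156013843-156016612) and Tnfrsf18 (chr4:156026164-156028895) share chromosome 4. Tnfrsf4 and Tnfrsf18 are direct family neighbours, 9.6 kb apart on the same strand, and while Tnfrsf18 was among the highest receptors in either population, Tnfrsf4 was the lowest. Cd27 (chr6:125232622-125237010) and Tnfrsf1a (chr6:125349362-125362484) flank Ltbr, the lymphotoxin beta receptor gene, on chromosome 6. Tnfrsf10b (chr14:69767472-69784411), Tnfrsf13c (chr15:82221743-82224369) and Fas (chr19:34290666-34327772) lie apart from the others.

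RefSeq promoters (GRCm38.p6, 250 bases before to 50 after a transcript start) are shown for the receptors with the largest differences toward ILC1 for which the table had an entry, Tnfrsf25 and Tnfrsf13c, and for Tnfrsf9, whose mean was lower in ILC1. They are Tnfrsf25 at chr4:152115684-152115983 (plus strand), Tnfrsf13c at chr15:82224331-82224630 (minus strand) and Tnfrsf9 at chr4:150927749-150928048 (plus strand), each written 5′ to 3′ on the gene's strand. Capitals mark matches, on either strand, to any of 4 motifs: GGGNN followed by TTTCC (NF-kB type), TGANTCA (AP-1 type), GGTGTGA (T-box type) and TGTGGT (Runx type). Of 32851 promoters of 300 bases, 1.63% held the NF-kB type, 7.81% the AP-1 type, 3.98% the T-box type and 16.8% the Runx type.
Tnfrsf25: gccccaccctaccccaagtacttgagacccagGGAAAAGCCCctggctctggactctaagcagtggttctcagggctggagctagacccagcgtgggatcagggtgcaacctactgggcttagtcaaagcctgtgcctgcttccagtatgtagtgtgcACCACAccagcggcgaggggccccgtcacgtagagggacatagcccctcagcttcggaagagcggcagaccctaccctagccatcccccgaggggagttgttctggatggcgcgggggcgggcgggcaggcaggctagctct
Tnfrsf13c: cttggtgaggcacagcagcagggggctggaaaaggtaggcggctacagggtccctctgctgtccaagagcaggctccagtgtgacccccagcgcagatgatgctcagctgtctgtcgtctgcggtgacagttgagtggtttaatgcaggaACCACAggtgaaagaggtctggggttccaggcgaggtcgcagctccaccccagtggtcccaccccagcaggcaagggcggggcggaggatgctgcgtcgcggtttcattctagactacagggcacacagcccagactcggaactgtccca
Tnfrsf9: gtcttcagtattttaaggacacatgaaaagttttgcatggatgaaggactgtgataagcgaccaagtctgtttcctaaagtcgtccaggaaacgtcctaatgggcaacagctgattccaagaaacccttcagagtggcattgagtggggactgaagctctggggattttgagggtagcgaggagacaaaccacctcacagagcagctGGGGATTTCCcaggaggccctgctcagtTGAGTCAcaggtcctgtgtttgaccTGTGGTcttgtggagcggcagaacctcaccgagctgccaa

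The Tnfrsf9 window held an NF-kB type match (GGGGATTTCC) that began 43 bases before the start, an AP-1 type match that began 15 bases before it and reads as TGANTCA on both strands, and a Runx type match after it. The Tnfrsf25 window held an NF-kB type match on the opposite strand (GGAAAAGCCC) and a Runx type match, and the Tnfrsf13c window a Runx type match. No match to the T-box motif was found in the promoter windows of the receptors in the table. The RefSeq table gives Tnfrsf9 and Tnfrsf25 another start each, whose windows held none of the 4 motifs. For these genes the window shown is thus the one with matches. Among the receptors whose windows are not shown, only Fas held a match, of the AP-1 type. These matches are letters in a window and not measured binding sites.

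Among the death domain receptors, Tnfrsf25, which encodes DR3, the receptor for TL1A and a costimulator of lymphocytes, showed the largest difference of the family. It stood at 22.4, 27.9 and 14.8 CPM in the ILC1 pools 1 to 3, against 0.573, 0.953 and 1.65 CPM in cNK pools 1 to 3. Every ILC1 pool was far above every cNK pool, and the cNK values rested on 16, 21 and 38 counts. The fold was 20.5 (log2 fold change 4.36 ± 0.47 SE, edgeR adjusted p = 0.0034).

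Tnfrsf10b encodes the death receptor for TRAIL in the mouse. Its level was low but even among pools, at 4.42, 4.61 and 4.46 CPM in the ILC1 pools 1 to 3, against 0.537, 0.590 and 0.521 CPM in cNK pools 1 to 3. The populations were separated by a gap much wider than the spread within either, with 369 counts in all in ILC1 and 40 in cNK. The fold was 8.13 (log2 fold change 3.02 ± 0.32 SE, edgeR adjusted p = 0.00292).

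Tnfrsf1a encodes TNFR1, the broadly expressed receptor for TNF that signals through the adaptor TRADD. It stood at 188, 176 and 166 CPM in the ILC1 pools 1 to 3, against 107, 86.2 and 93.2 CPM in cNK pools 1 to 3. The groups did not overlap, as was so for 15.0% of all tested genes with ILC1 above and 9.06% with cNK above (24.1% in all), and for 6 and 1 of the 9 tested receptors. The fold was 1.85 (log2 fold change 0.89 ± 0.17 SE, edgeR adjusted p = 0.0269). Leaving out a library ended the call in 4 of 6 cases, with an edgeR adjusted p of 0.0839 if ILC1 pool 1 was dropped, 0.0799 for ILC1 pool 2, 0.125 for cNK pool 2 and 0.175 for cNK pool 3. With the mitochondrial share of counts as covariate the log2 fold change was 0.73 and the edgeR adjusted p 0.0553.

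Fas, the receptor for Fas ligand and an inducer of apoptosis, stood at 7.67, 14.1 and 12.7 CPM in the ILC1 pools 1 to 3, against 8.99, 11.0 and 9.33 CPM in cNK pools 1 to 3. The groups overlapped, with ILC1 pool 1 the lowest of the 6 libraries and ILC1 pool 2 the highest. The log2 fold change was 0.23 ± 0.28 SE (edgeR adjusted p = 0.688), and Fas was called under 0 of 15 alternative settings.

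Among the receptors without a death domain, Tnfrsf13c had the largest difference. It encodes the BAFF receptor, known above all as a survival receptor of B cells. It stood at 45.1, 48.3 and 29.0 CPM in the ILC1 pools 1 to 3, against 3.90, 3.45 and 4.60 CPM in cNK pools 1 to 3. ILC1 pool 3 was the lowest of its population and still far above all cNK pools. The fold was 10.2 (log2 fold change 3.35 ± 0.27 SE, edgeR adjusted p = 0.00113).

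B-cell markers were set beside it. The 12 B-cell markers together made up 0.00163 to 0.00456% of counts in ILC1 and 0.00196 to 0.00287% in cNK, and 0 of the 9 that could be tested passed edgeR's test (1 in ILC1 and 0 in cNK at an unadjusted p under 0.05). The gene under 0.05 was Cd79b, which encodes a signalling chain of the B-cell receptor. It stood at 5.78, 6.76 and 5.08 CPM in the ILC1 pools 1 to 3, against 2.72, 2.63 and 2.04 CPM in cNK pools 1 to 3 (edgeR adjusted p = 0.0512), without overlap and highest in ILC1 pool 2, as was Tnfrsf13c. Pax5, which specifies B cells, was at 0.321, 0 and 0 CPM in the ILC1 pools 1 to 3, against 0.107, 0 and 0.174 CPM in cNK pools 1 to 3. The 0 of Pax5 in ILC1 pool 2 allows up to 0.102 CPM (3 counts, covering counting error only). The part of B cells in the values of Tnfrsf13c was not tested.

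Tnfrsf18 encodes GITR, a costimulatory receptor of activated T cells, regulatory T cells and natural killer cells. It stood at 111, 154 and 110 CPM in the ILC1 pools 1 to 3, against 58.1, 57.2 and 66.2 CPM in cNK pools 1 to 3. The cNK pools lay close together and all below the ILC1 pools, of which pool 2 was the highest. The fold was 2.06 (log2 fold change 1.04 ± 0.20 SE, edgeR adjusted p = 0.0269). Leaving out a library ended the call in 4 of 6 cases, with an edgeR adjusted p of 0.0674 if ILC1 pool 2 was dropped, 0.0688 for cNK pool 1, 0.12 for cNK pool 2 and 0.125 for cNK pool 3. With the mitochondrial share as covariate the log2 fold change was 1.01 and the edgeR adjusted p 0.0756. An antisense gene, Gm16008, overlaps 414 bases of its exons and was itself called higher in ILC1, at 2.28 ± 0.428 CPM, against 0.528 ± 0.0778 CPM in cNK (SD, n = 3 each). The sources used here do not say whether counting used strand, so the reads of Gm16008 and Tnfrsf18 may be mixed, which was not tested.

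Tnfrsf9 encodes 4-1BB (CD137), an activation-induced costimulatory receptor that binds TRAF1 and TRAF2. It was the only tested receptor whose libraries lay wholly lower in ILC1, at 180, 220 and 143 CPM in the ILC1 pools 1 to 3, against 404, 325 and 319 CPM in cNK pools 1 to 3. The fold of cNK over ILC1 was 1.93 (log2 fold change of ILC1 over cNK -0.95 ± 0.22 SE), which missed the threshold (edgeR adjusted p = 0.058). It was called under 6 of 15 alternative settings, among them the DESeq2 Wald test (adjusted p = 0.0028) and edgeR with upper-quartile factors (edgeR adjusted p = 0.0266), and its log2 fold change lay between -1.21 and -0.80 in all 15.

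Cd27, a costimulatory receptor whose loss marks late maturation of natural killer cells in the mouse, stood at 129, 172 and 144 CPM in the ILC1 pools 1 to 3, against 79.2, 86.9 and 107 CPM in cNK pools 1 to 3. The groups did not overlap, but the log2 fold change of 0.70 ± 0.20 SE did not pass (edgeR adjusted p = 0.107). DESeq2 called it (adjusted p = 0.0447).

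Tnfrsf1b, which encodes TNFR2, the TNF receptor of lymphocytes that binds TRAF2 and lacks a death domain, stood at 867, 440 and 373 CPM in the ILC1 pools 1 to 3, against 761, 338 and 405 CPM in cNK pools 1 to 3. Pool 1 was the highest of both populations and the groups overlapped. The log2 fold change was 0.16 ± 0.43 SE (edgeR adjusted p = 0.863), with a standard error wider than that of the other TRAF-binding receptors tested. Without ILC1 pool 1 it turned to -0.30, without cNK pool 2 to -0.06 and with the mitochondrial share as covariate to -0.55, all without a call.

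Tnfrsf4, which encodes OX40, a costimulator of activated T cells, was close to absent. It had 11, 6 and 24 counts (0.442, 0.205 and 0.864 CPM) in ILC1 pools 1 to 3, against 0, 2 and 4 counts (0, 0.0908 and 0.174 CPM) in cNK pools 1 to 3. The ILC1 values lay above the cNK values, but Tnfrsf4 did not reach the count minimum, and without the filter it was not called (edgeR adjusted p = 0.295), nor was it by DESeq2 (adjusted p = 0.231). The 0 in cNK pool 1 allows up to 0.107 CPM. Regulatory T cells carry much OX40. Their 4 listed markers made up 0.00335 to 0.00506% of counts in ILC1 and 0.000569 to 0.00114% in cNK, and 1 of the 2 tested was called higher in ILC1. It was Ikzf2, which encodes the transcription factor Helios, at 35.2 ± 7.40 CPM in ILC1, against 7.67 ± 3.08 CPM in cNK (SD, n = 3 each, edgeR adjusted p = 0.0122). Ikzf2 held most of the counts of the list, with 718, 979 and 1203 counts in ILC1 pools 1 to 3, against 40, 5 and 45 for Ikzf4. The share of the list thus follows mainly this gene. Foxp3, the defining factor of regulatory T cells, stood at 0, 0 and 0.216 CPM in the ILC1 pools 1 to 3, against 0.107, 0.0454 and 0 CPM in cNK pools 1 to 3. The part of regulatory T cells in the values of Tnfrsf4 and Tnfrsf18 was not tested.

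Levels were compared between receptors as CPM per kb of exon. In ILC1, Tnfrsf1b was the highest at 147 ± 70.1 CPM per kb (SD, n = 3), followed by Tnfrsf18 (81.9 ± 16.4), Tnfrsf1a (68.3 ± 4.28), Tnfrsf9 (66.5 ± 14.1) and Cd27 (63.6 ± 9.38), and each of these 5 overlapped its neighbour in the order. Tnfrsf13c (19.9 ± 5.04), Tnfrsf25 (9.52 ± 2.87), Fas (5.56 ± 1.63), Tnfrsf10b (0.825 ± 0.0186) and Tnfrsf4 (0.369 ± 0.245) came after them, and of these only Tnfrsf25 and Fas overlapped each other. In cNK, Tnfrsf1b (131 ± 59.5) and Tnfrsf9 (128 ± 17.4) overlapped at the top, clear of Tnfrsf18 (39.7 ± 3.24), Cd27 (39.0 ± 6.07) and Tnfrsf1a (36.8 ± 4.08). Below these, Fas (4.74 ± 0.518), Tnfrsf13c (1.95 ± 0.282) and Tnfrsf25 (0.465 ± 0.239) were each separate, and Tnfrsf10b (0.101 ± 0.00666) overlapped Tnfrsf4 (0.0645 ± 0.0636). With the length of the principal transcript in place of all exons, the order changed only among receptors near the top, where Tnfrsf9 passed Tnfrsf1a and Cd27 passed both in ILC1, and Tnfrsf9 passed Tnfrsf1b and Cd27 passed Tnfrsf18 in cNK.

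**Figure D3:**
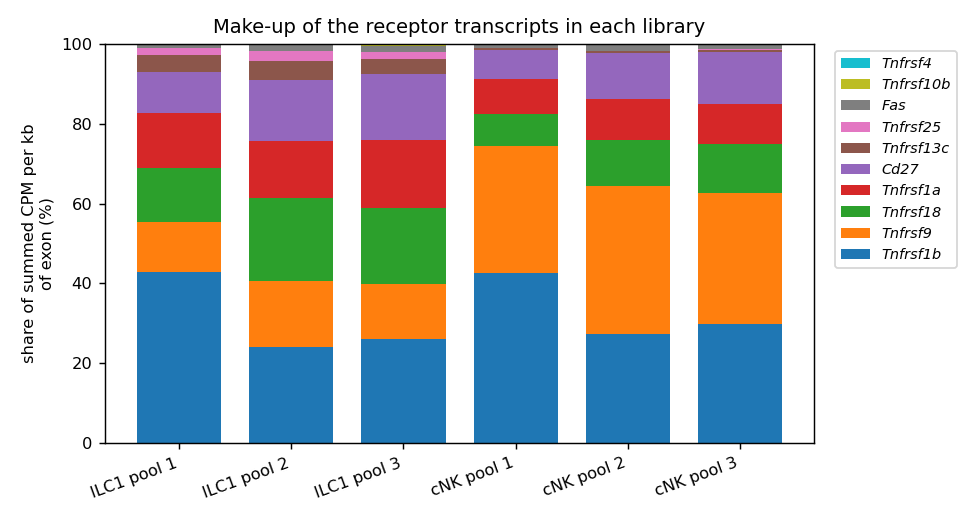
Share of each receptor (%) in the summed CPM per kb of the 10 receptors, for each ILC1 library on the left and each cNK library on the right. Tnfrsf9 took 12.5 to 16.7% in ILC1 and 31.7 to 36.9% in cNK, and Tnfrsf13c 3.76 to 4.89% in ILC1 and 0.408 to 0.630% in cNK.

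In percentage points, the makeup of the receptor transcripts differed most in Tnfrsf9. It took 12.5, 16.7 and 13.9% of the summed CPM per kb in ILC1 pools 1 to 3, against 31.7, 36.9 and 32.9% in cNK pools 1 to 3. Tnfrsf18 took 13.7, 20.9 and 19.1% in ILC1 pools 1 to 3, against 8.16, 11.6 and 12.2% in cNK pools 1 to 3. Tnfrsf1b took 42.8, 23.9 and 26.0% in ILC1 pools 1 to 3, against 42.6, 27.4 and 29.8% in cNK pools 1 to 3, with the highest share in pool 1 of both populations. By ratio, the shares of Tnfrsf25, Tnfrsf13c, Tnfrsf10b and Tnfrsf4 differed more than that of Tnfrsf9. Tnfrsf25 took 1.85, 2.54 and 1.73% in ILC1 pools 1 to 3, against 0.0538, 0.129 and 0.203% in cNK pools 1 to 3.

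Ratios within a library do not depend on its scaling. The ratio of Tnfrsf18 to Tnfrsf9 (CPM per kb) was 1.10, 1.25 and 1.37 in ILC1 pools 1 to 3, against 0.257, 0.315 and 0.371 in cNK pools 1 to 3, and the groups did not overlap (two-sided exact permutation p = 0.1, which is the lower limit for groups of 3). GITR transcripts were thus the more abundant of the pair in every ILC1 pool and the less abundant in every cNK pool. The ratio of Tnfrsf25 to Tnfrsf1a was 0.135, 0.18 and 0.101 in ILC1 pools 1 to 3, against 0.00610, 0.0126 and 0.0201 in cNK pools 1 to 3 (two-sided exact permutation p = 0.1). The ratio of Tnfrsf1a to Tnfrsf1b, the receptors for TNF, was 0.320, 0.590 and 0.656 in ILC1 pools 1 to 3, against 0.207, 0.376 and 0.339 in cNK pools 1 to 3, and overlapped (two-sided exact permutation p = 0.3). These 3 ratios were chosen after the values were seen, and adjusted over the 3 (Benjamini-Hochberg) the exact permutation p was 0.15, 0.15 and 0.3 in this order.

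**Figure D4:**
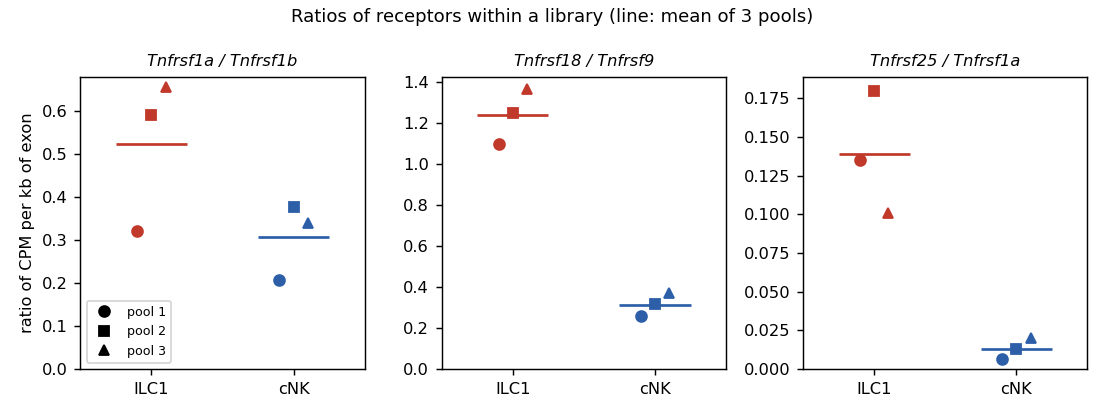
Ratio of CPM per kb of exon between receptors in each library, ILC1 left of cNK, with a line at the mean of 3 pools. Tnfrsf18 over Tnfrsf9 lay between 1.10 and 1.37 in ILC1 and between 0.257 and 0.371 in cNK, whereas Tnfrsf1a over Tnfrsf1b overlapped.

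The genes for the ligands of these receptors were set beside them. Among the 14 TNF superfamily ligands tested, edgeR called 7 as higher in ILC1 and 2 as higher in cNK, at a median log2 fold change of 1.48. By size of fold, the leading ones in ILC1 were Tnfsf10 (log2 fold change 4.25), Tnf (3.19), Tnfsf11 (3.17), Ltb (2.87) and Tnfsf8 (2.67), and those in cNK were Tnfsf4 (-2.24) and Tnfsf12 (-1.31). Without any 1 library, the count in cNK was 0 or 1.

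TRAIL and its receptor were both higher in ILC1. Tnfsf10, the ligand of Tnfrsf10b, stood at 146 ± 53.0 CPM in ILC1, against 7.66 ± 0.623 CPM in cNK (SD, n = 3 each, edgeR adjusted p = 0.00094). The ligands of TNFR1 and TNFR2 were also higher in ILC1: Tnf stood at 66.6 ± 20.6 CPM there, against 7.31 ± 2.76 CPM in cNK (edgeR adjusted p = 0.00483), and Lta at 8.06 ± 1.13 CPM, against 1.45 ± 0.610 CPM in cNK (edgeR adjusted p = 0.0132). Tnfsf4, the ligand of the nearly absent Tnfrsf4, went the other way, at 0.769 ± 0.280 CPM in ILC1, against 3.66 ± 0.710 CPM in cNK (edgeR adjusted p = 0.0211).

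For Tnfrsf9, ligand and receptor had fold changes of opposite sign, neither of which passed edgeR's test. Its ligand Tnfsf9 stood at 23.0 ± 7.58 CPM in ILC1, against 10.4 ± 3.49 CPM in cNK (log2 fold change 1.14 ± 0.34 SE, edgeR adjusted p = 0.128). DESeq2 called it higher in ILC1 (adjusted p = 0.0484), and so did the edgeR fit that held the mitochondrial share as a term (1.77, adjusted p = 0.00833). Fasl, the ligand of Fas and a cytotoxic effector, stood at 272 ± 35.6 CPM in ILC1, against 399 ± 73.2 CPM in cNK (edgeR adjusted p = 0.221).

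For the other receptors, transcripts of the ligand genes were scarce in both populations. Tnfsf15, which encodes TL1A, the ligand of Tnfrsf25, stood at 0.588 ± 0.527 CPM in ILC1, against 0.400 ± 0.348 CPM in cNK (edgeR adjusted p = 0.807). Tnfsf13b, which encodes BAFF, the ligand of Tnfrsf13c, stood at 1.21 ± 0.365 CPM in ILC1, against 0.497 ± 0.277 CPM in cNK (edgeR adjusted p = 0.286). Tnfsf18, the ligand of Tnfrsf18, had at most 6 counts in an ILC1 library and at most 1 in a cNK library. Cd70, the ligand of Cd27, had 14, 7 and 10 counts in ILC1 pools 1 to 3 and 0 in each cNK pool, which allows up to 0.107 to 0.136 CPM there. Neither Tnfsf18 nor Cd70 reached the count minimum of the edgeR test, while DESeq2 called Cd70 higher in ILC1 (adjusted p = 0.0109).

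**Figure D5:**
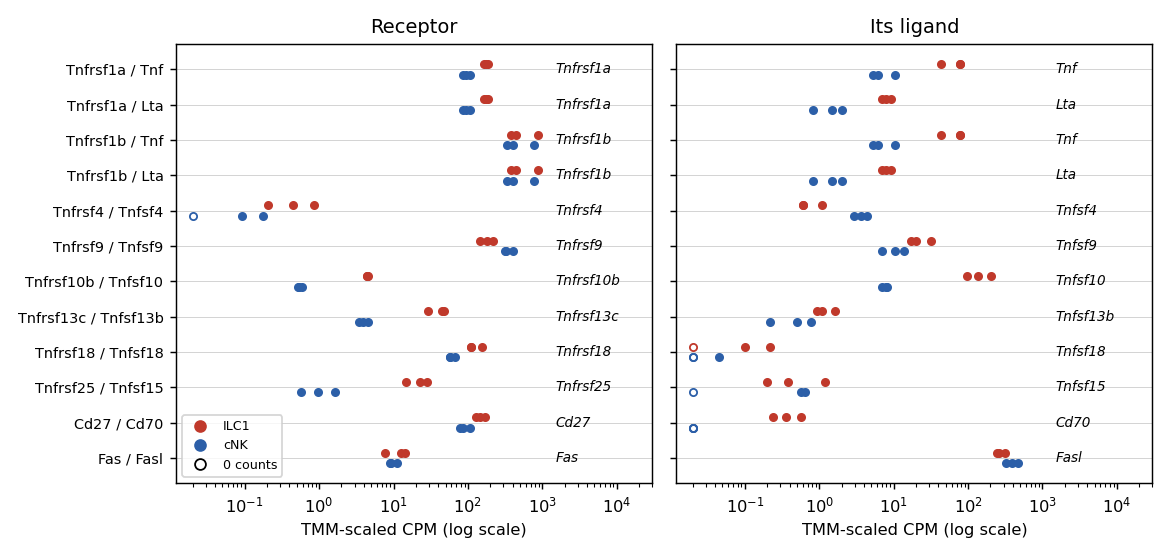
TMM-scaled CPM (log axis) of each receptor on the left and of a gene for its ligand on the right, with 1 dot per library, ILC1 in red above cNK in blue, and open dots at 0.02 for 0 counts. Tnfrsf10b and Tnfsf10 are both higher in ILC1, while Tnfsf15, Tnfsf18 and Cd70 stay at low levels beside their receptors.

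The rest of the family gave no call in the edgeR fit on population alone. Of 18 further receptor genes listed, 16 were in the table and 11 were tested, of which edgeR called 0 in either direction (4 higher in ILC1 and 0 in cNK at an unadjusted p under 0.05), with a median log2 fold change of 0.65. The 3 of highest level were Relt, at 39.9 ± 8.65 CPM in ILC1, against 25.4 ± 9.25 CPM in cNK, Tnfrsf21 (DR6, a death domain receptor), at 35.0 ± 9.44 against 14.0 ± 4.84 CPM in cNK, and Tnfrsf12a (the TWEAK receptor), at 17.2 ± 8.48 against 20.4 ± 10.7 CPM in cNK (SD, n = 3 each). DESeq2 called 3 higher in ILC1, named here after their values were seen: Tnfrsf13b (adjusted p = 0.0316), Tnfrsf21 (0.012) and Cd40 (0.00911), while limma-voom called 0. With the mitochondrial share as covariate, edgeR called Tnfrsf21 (log2 fold change 1.89, adjusted p = 0.0288) and Ltbr (1.63, adjusted p = 0.0198) higher in ILC1. Without ILC1 pool 3 and cNK pool 2 together, it called Cd40 higher in ILC1 (4.44, adjusted p = 0.0285). Tnfrsf13b encodes TACI, which like the BAFF receptor binds BAFF, and stood at 7.46 ± 2.29 CPM in ILC1, against 3.38 ± 0.410 CPM in cNK (SD, n = 3 each). The mouse decoy receptors for TRAIL, Tnfrsf22 and Tnfrsf23, had log2 fold changes of -0.07 and -0.32 without a call, and as closely related neighbours their counts are uncertain. For the counts at an unadjusted edgeR p under 0.05, here and for other lists, the share over all tested genes was not counted.

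Downstream of the receptors no difference passed the edgeR fit on population alone. Of 7 TRAF adaptor genes, 0 were called (2 higher in ILC1 and 1 in cNK at an unadjusted edgeR p under 0.05, and 0 by DESeq2 or limma-voom). Traf1 stood at 198 ± 21.0 CPM in ILC1, against 163 ± 28.7 CPM in cNK, Traf2 at 92.7 ± 17.3 against 58.7 ± 13.0 CPM in cNK, and Traf7 at 70.8 ± 12.4 against 59.8 ± 19.0 CPM in cNK (SD, n = 3 each). Their median log2 fold change was 0.28.

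Of 9 genes of the death domain and caspase-8 complexes, edgeR, DESeq2 and limma-voom called 0 (1 in each direction at an unadjusted edgeR p under 0.05), with a median log2 fold change of 0.06. Casp8, the initiator caspase of death receptors, stood at 134 ± 16.4 CPM in ILC1, against 128 ± 17.8 CPM in cNK. Cflar, which encodes the caspase-8 regulator FLIP, stood at 93.2 ± 12.0 against 76.1 ± 12.1 CPM in cNK, and Bid, a target of caspase-8, at 85.2 ± 11.6 against 78.9 ± 8.25 CPM in cNK (SD, n = 3 each).

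Of 21 genes of the ubiquitin and kinase relay to NF-kB, edgeR called 0 (4 higher in ILC1 and 1 in cNK at an unadjusted p under 0.05), limma-voom called 0 and DESeq2 called 1, Otulin, a deubiquitinase of linear chains, as higher in cNK (adjusted p = 0.0243). Tnfaip3, which encodes the NF-kB inhibitor A20, stood at 951 ± 327 CPM in ILC1, against 532 ± 145 CPM in cNK, Tax1bp1, a partner of A20, at 260 ± 22.8 against 307 ± 21.3 CPM in cNK, and Rbck1, a subunit of the linear ubiquitin ligase, at 161 ± 49.8 against 155 ± 48.1 CPM in cNK (SD, n = 3 each). The median log2 fold change of these 21 was 0.39.

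For each called receptor, the gene of at least 10 CPM most like it over the 6 libraries was sought by the root mean square (RMS) difference of log2 profiles, each centred on its mean. Tnfrsf25 was nearest to Ltb4r1, a leukotriene B4 receptor (RMS 0.20), Tnfrsf13c to Il7r, the interleukin 7 receptor chain (0.20), and Tnfrsf10b to Cd226, an activating receptor (0.18). Tnfrsf18 was nearest to Fam189b (0.053) and Tnfrsf1a to Pde4b, a cyclic AMP phosphodiesterase (0.048). The next ones were Podnl1, Cracdl, Jaml, Gm12250 and Srebf2.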

How the data were processed

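Per the labels' protocols, total RNA was sequenced from ILC1 and cNK cells sorted from kidney leukocytes, in 3 pools each. The authors deposited 1 table of unnormalized gene counts for the 6 libraries, with mean columns and ranked symbol lists that were not used here. Trimmomatic 0.38, STAR 2.6.1, DESeq, DESeq2 1.30.0 in R 4.03 and the build GRCm38 are listed, per the submitters' processing notes. The counting program and its strand setting were not stated in the sources used here.

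Counts were tested with edgeR 4.0.16 in R 4.3.3 (TMM scaling, filterByExpr by population, robust quasi-likelihood fit on population, Benjamini-Hochberg over 16144 genes at 0.05). Alternatives used DESeq2 1.42.0, limma-voom (limma 3.58.1), other scalings and filters, a block for pool number, the mitochondrial share as covariate, and left out libraries. Exon lengths came from GENCODE M21, where 23836 of 23841 identifiers matched, and promoters from RefSeq. Intervals and floors cover counting error only. Members and lists were chosen with earlier results of these data known. Named beyond the members were each receptor's ligands, up to 5 called genes per list and direction (or 3 of the highest level) and the nearest patterns.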

Additional observations from a re-analysis of the deposited data

How the results depend on the processing

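The count of receptors higher in ILC1 was 5, and lay between 3 and 5 when each library was left out in turn. It was 3 with the mitochondrial share as covariate and 3 when ILC1 pool 3 and cNK pool 2 were dropped together. It was 6 under the DESeq2 Wald test and with the pool number as a replicate block, each of which also called Cd27. The number of receptors higher in cNK was 0, also without each library in turn (0 to 0), and was 1 (Tnfrsf9) under upper-quartile factors, DESeq2 size factors, the Wald test of DESeq2, the filter of 1 CPM in 3 libraries, the pool number as a replicate block and the mitochondrial covariate. Over all genes, the count higher in ILC1 was 657, and 1100 under the DESeq2 Wald test, 1107 under the replicate block and 214 to 695 without each library. That in cNK was 273, and 647, 675 and 93 to 672 under the same settings, and 431 when ILC1 pool 3 and cNK pool 2 were dropped together. Only Tnfrsf1b changed sign, to -0.552 with the mitochondrial covariate, -0.299 without ILC1 pool 1 and -0.0627 without cNK pool 2, against a range of -0.299 to 0.543 without each library. The cause was not tested. The pool numbers were not taken to pair the samples in the main fit. The deviations of same-numbered pools correlated at 0.542, -0.118 and 0.1, and the highest correlation, 0.632, was between ILC1 pool 3 and cNK pool 2. Such correlations cannot decide whether same-numbered pools share an origin, since other differences between libraries also enter them. Under the replicate block, Cd27 was also called higher in ILC1 (edgeR adjusted p = 0.0415), as were Tnfsf9 (0.0435), Traf2 (0.0403), Cyld (0.0324), Tnfaip3 (0.0475), Tab1 (0.0377) and Ikbkb (0.0351), and Otulin in cNK (0.04). Each fit without a library left 2 pools in that population. Depth limits Tnfrsf4, Tnfsf18 and Cd70, which did not reach edgeR's count minimum with all 6 libraries.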
